A study of Homo sapiens with 26 samples.

Results

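The genes described here are 58 genes whose products build and run the mitotic spindle, the kinetochore and the division of the cell. They were taken by symbol from a list of mitotic genes, and every one was found by its Ensembl identifier in all 3 count tables, among 62703 genes for the lines Panc10.05 and BxPC3 and 62754 for AsPC-1. RNA had been sequenced from these 3 established human lines of pancreatic ductal adenocarcinoma after the transcription factor HNF4α had been switched on or turned down. HNF4α is a nuclear receptor made from the gene HNF4A, whose promoters P1 and P2 give different isoforms. In Panc10.05, doxycycline induced isoform P1-a2 at 25 ng/mL or isoform P2-a8 at 12.5 ng/mL, and the control, labelled NC and carrying GFP by its titles, also received 25 ng/mL. In BxPC3, the P1-a2, the P2-a8 and the control cells (NC, titled EV) all received 500 ng/mL. Each of these 6 groups had 2 libraries. In AsPC-1, CRISPR interference (CRISPRi) was aimed at P1 with the guides sgP1E and sgP1J, at P2 with sgP2D and sgP2G, and at both isoforms with sgDual2 and sgDual3. Each guide had 2 libraries, so each target had 4, and the control guide sgNC had 2. All groups of Panc10.05 and BxPC3 received doxycycline, but in Panc10.05 the P2-a8 dose was below that of both P1-a2 and NC. The labels name replicates but do not say that they were separate cultures, so p-values here measure only the spread between these libraries, which may be technical.

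Mitosis is driven by the kinase CDK1 with cyclin B and by the Polo-like and Aurora kinases, which assemble a spindle of microtubules. Kinetochores, protein assemblies on each centromere, tie chromosomes to the spindle, and the spindle assembly checkpoint holds back anaphase until all are attached. Most of the genes are transcribed late in the cell cycle, when FOXM1, MYBL2 and the MuvB proteins act at promoters that carry a cell cycle homology region (CHR) and CCAAT boxes bound by NF-Y. In resting cells the DREAM complex represses the same promoters through the CHR.

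The promoters of 6 of these genes are shown as examples of 3 arrangements of the exact motif letters given below. PLK1, CCNB2, CDC20 and CDK1 have both motifs, KIF20A a CCAAT box alone and MYBL2 neither. Only the exact letters were searched, so a variant form of a motif was not counted. They run from 170 bases before to 30 bases after the start of transcription given by RefSeq (build GRCh38.p14), and capitals mark the CHR letters TTTGAA and the CCAAT box letters CCAAT on either strand, so that a match on the opposite strand reads TTCAAA or ATTGG. Position -1 is the last base before the start and positions refer to the first base of the match. PLK1 (chromosome 16, 23678719 to 23678918, plus strand) has a CHR at -29 and a CCAAT box at -73.
PLK1: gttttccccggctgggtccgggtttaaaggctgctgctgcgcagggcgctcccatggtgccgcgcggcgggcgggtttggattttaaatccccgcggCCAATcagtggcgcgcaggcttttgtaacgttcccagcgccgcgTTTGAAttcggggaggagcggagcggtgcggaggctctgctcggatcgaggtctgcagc
CCNB2 (chromosome 15, 59104976 to 59105175, plus strand) has a CHR at the same place, -29, behind 3 CCAAT boxes at -120, -87 and -54.
CCNB2: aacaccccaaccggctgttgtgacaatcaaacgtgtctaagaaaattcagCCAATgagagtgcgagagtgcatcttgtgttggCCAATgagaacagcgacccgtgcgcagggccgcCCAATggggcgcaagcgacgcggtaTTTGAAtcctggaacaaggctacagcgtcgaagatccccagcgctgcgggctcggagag
CDC20 (chromosome 1, 43358811 to 43359010, plus strand) has a CHR at -65 between CCAAT boxes at -100 and -55.
CDC20: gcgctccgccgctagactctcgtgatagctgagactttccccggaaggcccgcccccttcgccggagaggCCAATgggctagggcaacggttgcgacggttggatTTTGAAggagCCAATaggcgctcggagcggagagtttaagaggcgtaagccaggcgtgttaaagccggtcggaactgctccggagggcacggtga
CDK1 has 2 listed windows, of which the one with the most CHR matches is shown (chromosome 10, 60778308 to 60778507, plus strand). It holds 3 CHR matches, at -69 and -13 on the plus strand and at 10 on the minus strand, and 2 CCAAT boxes on the minus strand.
CDK1: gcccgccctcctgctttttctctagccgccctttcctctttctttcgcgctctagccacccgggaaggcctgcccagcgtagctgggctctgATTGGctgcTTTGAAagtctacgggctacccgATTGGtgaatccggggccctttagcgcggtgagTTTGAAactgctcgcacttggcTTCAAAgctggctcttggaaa
KIF20A (chromosome 5, 138178942 to 138179141, plus strand) has 2 CCAAT boxes on the minus strand and no CHR letters in this stretch.
KIF20A: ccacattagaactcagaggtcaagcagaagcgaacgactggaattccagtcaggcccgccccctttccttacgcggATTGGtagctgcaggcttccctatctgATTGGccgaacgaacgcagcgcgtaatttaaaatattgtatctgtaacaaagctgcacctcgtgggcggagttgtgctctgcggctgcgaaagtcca
MYBL2 (chromosome 20, 43666944 to 43667143, plus strand) shows neither set of letters.
MYBL2: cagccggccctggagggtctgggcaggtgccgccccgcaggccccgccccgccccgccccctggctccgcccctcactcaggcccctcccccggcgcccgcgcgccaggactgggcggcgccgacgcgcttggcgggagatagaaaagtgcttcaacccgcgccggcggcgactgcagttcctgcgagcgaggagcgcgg

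Over the whole RefSeq windows of 300 bases (250 before and 50 after the start), 49 of the 58 genes had at least 1 window. A CHR was found in 39 of their 58 windows (67.24%), against 15.16% of all 35116 windows of the same length, and a CCAAT box in 43 (74.14%), against 34.61%. By gene, 28 held both, 7 held a CHR alone, 10 a CCAAT box alone, and CENPE, GAS2L3, KIF2C and MYBL2 held neither. Of 52 CHR matches in these windows, 38 began within 50 bases of the start. Some genes have more than 1 window, so a match can be counted more than once. Between 50 bases before and 50 after the start, 58.62% of the genes' windows held a CHR, against 4.62% of all windows. The 9-base HNF4 motif CAAAGTCCA was in none of the 58 windows, against 0.38% of all windows, which says only that these letters are not in these stretches. These matches are descriptions of letters and not sites of binding.

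HNF4A was measured first as a check of which libraries were labelled induced, repressed or control. Its counts are per gene, so they do not tell P1 from P2 isoforms. In Panc10.05, HNF4A stood at 0.240 and 0.0579 CPM (normalised counts on a common library size) in the control libraries. It stood at 10.7 and 12.97 CPM with P1-a2 and 37.6 and 37.6 with P2-a8. BxPC3 gave 1.08 and 0.464 CPM in control, 9.75 and 11.6 with P1-a2 and 12.6 and 14.2 with P2-a8. In AsPC-1 it stood at 206 and 219.7 CPM with sgNC, 109 to 145 over the sgP1 libraries, 76.7 to 93.8 over sgP2 and 3.18 to 13.6 over sgDual. Every induced library was above and every repressed library below the controls of its line, although with edgeR's quasi-likelihood test the sgP1 and sgP2 differences were not past the threshold (adjusted p = 0.615 and 0.0751). Totals ran from 26079388 to 50662077 counts per library, and no gene of the 58 had fewer than 205 counts in any library. All 5 epithelial markers were present in each line (lowest value 13.3 CPM), while the leukocyte gene PTPRC and the endothelial gene KDR were at or near 0. Other markers of those types were detected: the leukocyte list summed to at most 11.7 CPM in a Panc10.05 library, 25.8 in BxPC3 and 8.24 in AsPC-1, and the endothelial list to at most 1.09, 9.12 and 0.864. Of the fibroblast markers, LUM was at 0 in Panc10.05 and at 130.3 to 298.7 CPM in AsPC-1.

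Scaled by gene length, the genes spanned a wide range of levels in the control libraries. In Panc10.05 the level ran from 5.58 CPM per kilobase (PRC1, which bundles midzone microtubules) to 194 (CCNB1, cyclin B1), with a median of 28.1. UBE2C, the ubiquitin-conjugating enzyme of the anaphase-promoting complex, was highest in BxPC3 at 114 CPM per kilobase. MYBL2, the transcription factor B-MYB, was highest in AsPC-1 at 134. TPX2, which targets Aurora A to the spindle, ranked the second in Panc10.05 and the third in the other lines. Together the 58 genes took 0.865% ± 0.0220 (SD, n = 2) of all counts in Panc10.05 controls, 0.570% ± 0.0407 in BxPC3 controls (n = 2) and 0.698% ± 0.00315 with sgNC (n = 2).

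**Figure D1:**
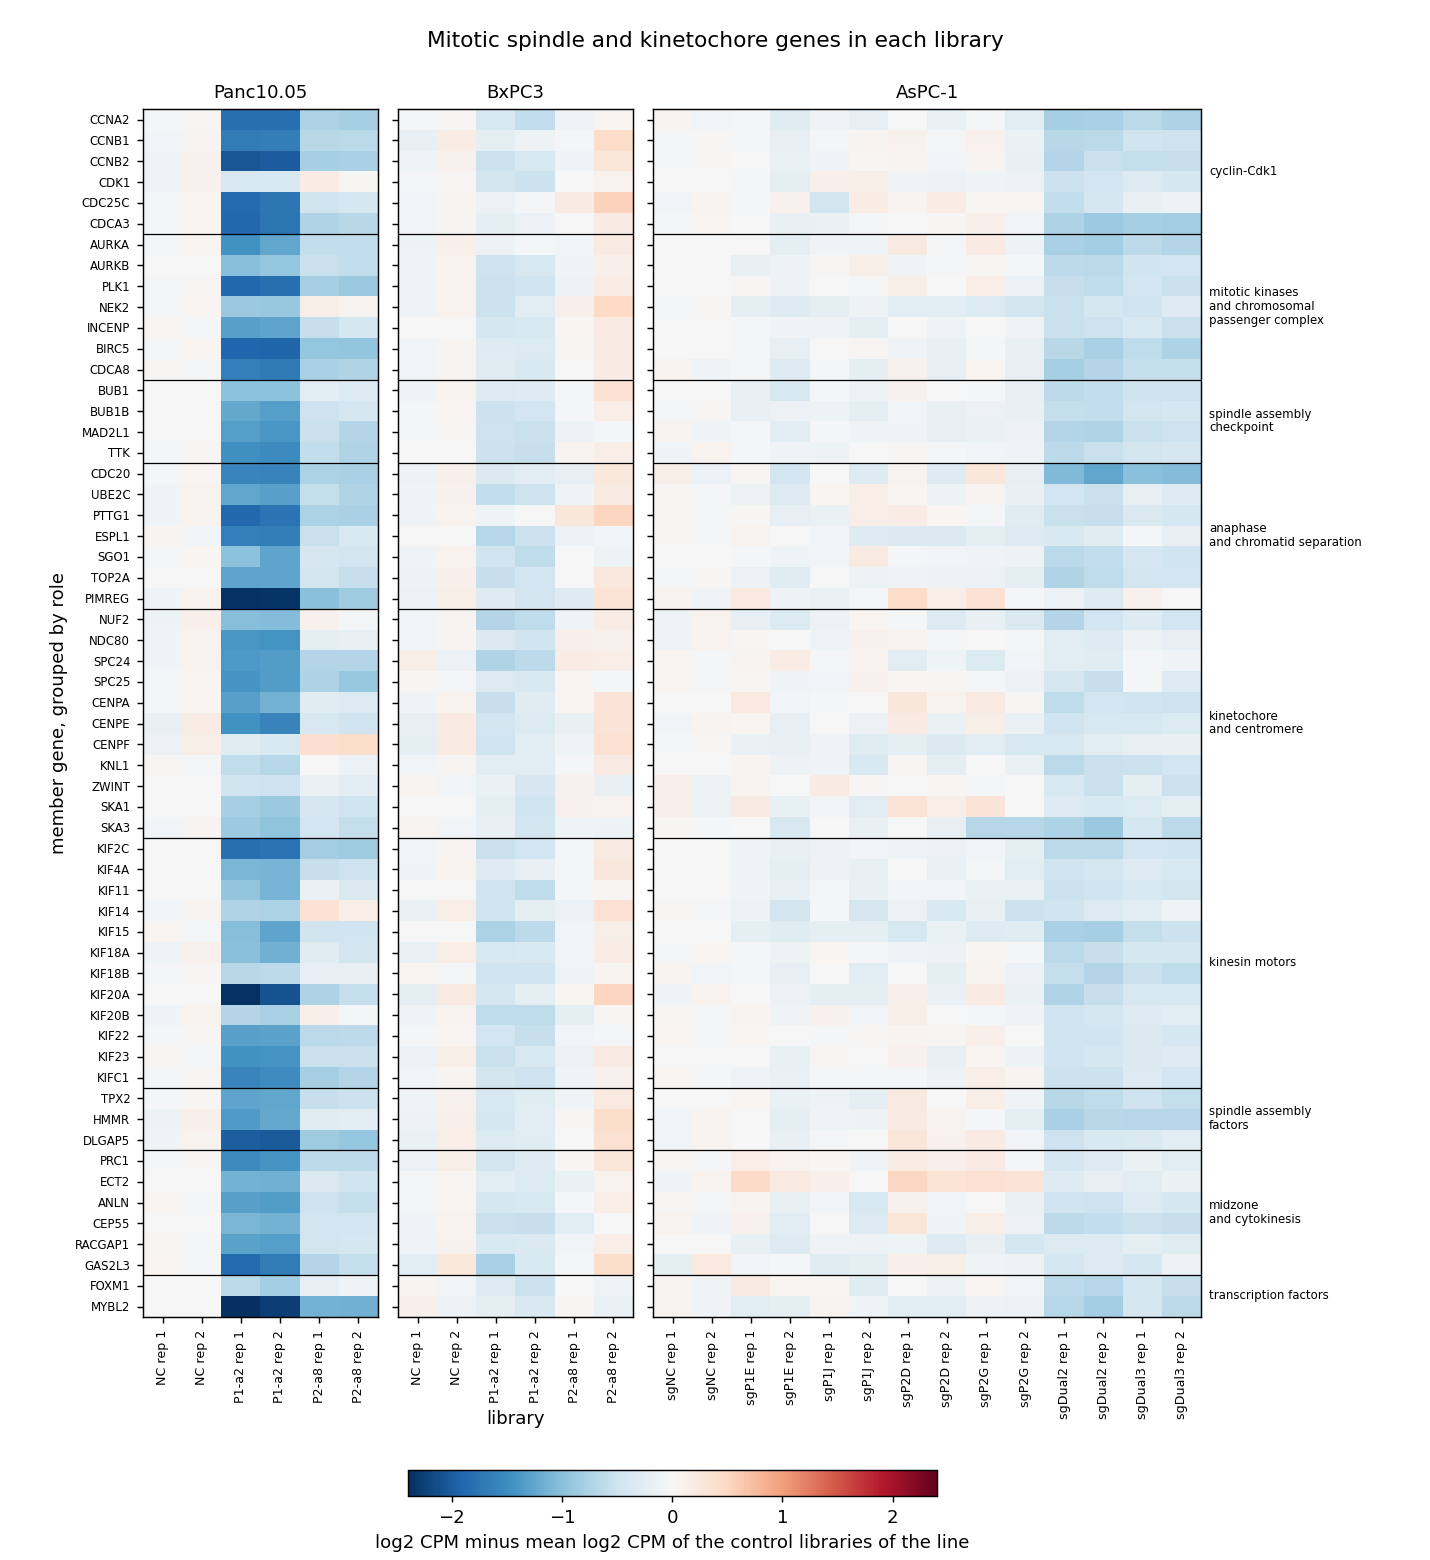
Each row is a gene, grouped by role, and each column a library; colour gives its log2 CPM minus the mean log2 CPM of the control libraries of the same line. The P1-a2 libraries of Panc10.05 are blue in all 58 rows, while in AsPC-1 the blue columns are the 4 sgDual libraries.

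In Panc10.05, P1-a2 lowered the mitotic genes as a body. All 58 were lower than in control (adjusted p under 0.05, edgeR's quasi-likelihood test), where 30.5% of the 17247 genes tested were lower and 62% were past the threshold in either direction. Their median log2 fold change was -1.30, against 0.02 over all tested genes, and 45 of the 58 fell by at least 1 on the log2 scale. The 30.5% has no such limit on size, and the share of all tested genes with it is not given. The 58 genes together took 0.354% of counts with P1-a2, down from the 0.865% of control. In bulk libraries such as these, fewer cells in mitosis and less of each RNA per cell cannot be told apart.

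The cyclin and CDK1 genes fell unequally. CCNB1 was at 470.1 and 521 CPM in the control libraries, 154 and 156 with P1-a2 and 314 and 315 with P2-a8. The 3 groups did not overlap, with P1-a2 the lowest (log2 fold change -1.68, SE 0.06, adjusted p = 1.09e-25 against control). CDK1, the kinase itself, was at 105 and 120.0 CPM in control, 85.8 and 86.4 with P1-a2 and 127 and 115 with P2-a8. P1-a2 was again below both other groups, but by far less (log2 fold change -0.39, SE 0.07, adjusted p = 3.34e-06), and P2-a8 overlapped control. CCNB2, a second B-type cyclin, fell by 2.02 on the log2 scale (SE 0.07) and CDC25C, the phosphatase that activates CDK1, by 1.80 (SE 0.09).

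Among the mitotic kinases, PLK1, which acts at centrosomes, kinetochores and the midzone, stood at 141 and 148 CPM in control and 39.1 and 41.2 with P1-a2. That was a fall to 27.8% of control (log2 fold change -1.85, SE 0.07, adjusted p = 5.12e-26). AURKA, the Aurora kinase of the spindle poles, went from 227 and 241 CPM to 85.8 and 98.0 (log2 fold change -1.35, SE 0.06, adjusted p = 7.56e-22). AURKB, the catalytic subunit of the chromosomal passenger complex, went from 61.4 and 62.5 CPM to 30.6 and 32.5. Its fall of 0.97 on the log2 scale was smaller than the 1.91 of its partner BIRC5, also called survivin, and the difference between them was not tested. All 7 genes of this role and all 4 checkpoint genes fell. BUB1B, the checkpoint protein BubR1, was at 75.8 and 75.3 CPM in control and 32.3 and 30.3 with P1-a2 (log2 fold change -1.27, SE 0.07, adjusted p = 1.19e-19).

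The genes of anaphase and chromatid separation fell by 1.12 to 2.37 on the log2 scale. CDC20, the activator of the anaphase-promoting complex, stood at 201 and 213 CPM in control and 68.5 and 67.8 with P1-a2 (log2 fold change -1.60, SE 0.06, adjusted p = 7.13e-25). PTTG1, the securin that restrains separase, stood at 162 and 184 CPM and 46.8 and 50.6 (log2 fold change -1.83, SE 0.07, adjusted p = 1.65e-25). TOP2A, the topoisomerase that untangles sister DNA, fell from 437 and 438 CPM to 181 and 182. PIMREG had the largest fall of the 58 genes, from 34.1 and 38.0 CPM to 6.95 and 7.02 (log2 fold change -2.37, SE 0.10, adjusted p = 5.28e-24).

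At the kinetochore the 11 genes fell by a median of 1.04 on the log2 scale, and the range was wide. NDC80, the microtubule-binding subunit that names its complex, stood at 112 and 125 CPM in control, 44.8 and 43.8 with P1-a2 and 102 and 104 with P2-a8. The P2-a8 libraries lay a little below control and the P1-a2 libraries far below both (log2 fold change -1.42, SE 0.07, adjusted p = 5.75e-22 for P1-a2 against control). CENPF, a large outer kinetochore protein, fell least of the 58, from 199 and 239.8 CPM to 179.6 and 169 (log2 fold change -0.33, SE 0.07, adjusted p = 7e-05).

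Among the 12 kinesin motors, KIF20A, which carries passenger proteins to the midzone, stood at 159.9 and 164 CPM in control, 31.3 and 38.0 with P1-a2 and 96.4 and 109 with P2-a8. It was reduced to 21.4% of control with P1-a2 (log2 fold change -2.22, SE 0.08, adjusted p = 7.54e-22). KIF11, the motor that pushes spindle poles apart, stood at 164 and 165 CPM and 85.4 and 75.7 (log2 fold change -1.03, SE 0.07, adjusted p = 6.33e-17). TPX2 went from 496 and 521 CPM to 211 and 213, and ANLN, the anillin of the cleavage furrow, from 705 and 668 to 277 and 270.0. Neither gene's P1-a2 libraries overlapped control.

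The 2 transcription factors parted. MYBL2 stood at 86.1 and 86.3 CPM in control, 15.8 and 18.0 with P1-a2 and 39.4 and 38.6 with P2-a8. The 3 groups were well separated, and P1-a2 left 19.6% of control (log2 fold change -2.35, SE 0.08, adjusted p = 1.36e-27). FOXM1 stood at 362 and 359.9 CPM, 229.5 and 205 and 316 and 339 in the same groups. P1-a2 was lower than control by 0.73 on the log2 scale (SE 0.06), while P2-a8 was not past the threshold (adjusted p = 0.0537).

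**Figure D2:**
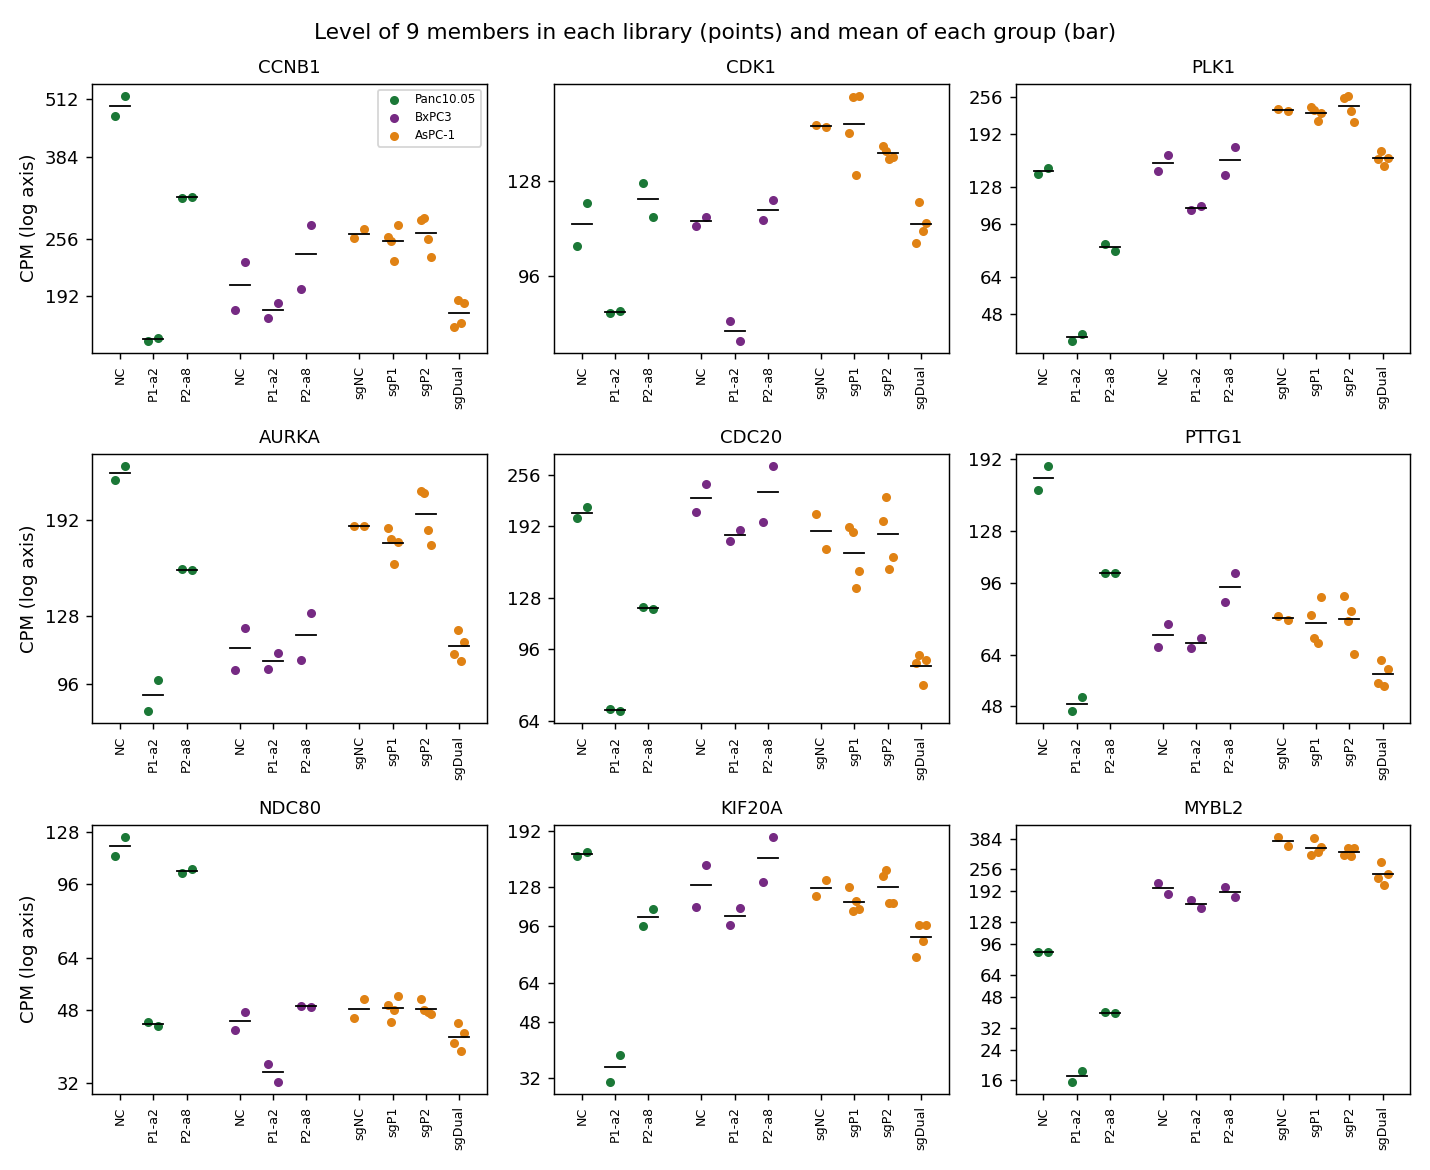
Points give the CPM (log axis, scaled separately in each panel) of 9 genes in every library, by group, and bars the group mean; green is Panc10.05, purple BxPC3 and orange AsPC-1. The Panc10.05 P1-a2 points lie below the other groups of that line in all 9 panels, and the sgDual points lie below sgNC in all 9.

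With P2-a8 most of the genes were also lower than control in Panc10.05. This comparison differs in doxycycline dose (12.5 against 25 ng/mL) as well as in construct, and these cannot be told apart. Of the 58, 50 were lower than control and 2 higher, where 22.5% of all tested genes were lower, 23.7% higher and 46.2% past the threshold in either direction. The median log2 fold change was -0.51, and only MYBL2 fell by at least 1 (log2 fold change -1.14, SE 0.07, adjusted p = 2.31e-17). BIRC5 (-0.94 on the log2 scale) and PIMREG (-0.93) had the next largest falls. The followed genes PLK1 (log2 fold change -0.85, SE 0.06, adjusted p = 9.97e-15), CDC20 (-0.77), PTTG1 (-0.77) and CCNB1 (-0.66) were also lower in both libraries than in either control.

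The 2 genes that rose were CENPF and KIF14, a kinesin of the midzone. CENPF stood at 289.8 and 293 CPM with P2-a8 (log2 fold change 0.41, SE 0.07, adjusted p = 4.54e-06), above both controls. KIF14 rose by 0.26 on the log2 scale (SE 0.07), a call that was lost without P2-a8 replicate 1. Neither rose with P1-a2. CDK1, NEK2, NUF2, KNL1, KIF20B and FOXM1 were not past the threshold. KIF11 and NDC80 fell by 0.25 and 0.20 on the log2 scale. Leaving out P2-a8 replicate 2 ended the KIF11 call, and leaving out NC replicate 2 or P2-a8 replicate 1 ended that of NDC80.

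Set directly against P2-a8, P1-a2 was lower for all 58 genes, where 24.7% of all tested genes were lower and 46.9% past the threshold in either direction. The median log2 difference was -0.81, and 17 genes differed by at least 1. The 24.7% has no such limit on size. KIF20A (log2 fold change -1.57, SE 0.08, adjusted p = 4.25e-17), PIMREG (-1.44) and CDC25C (-1.34) differed most. These groups differ in dose as well as in isoform, and HNF4A itself was lower with P1-a2 (log2 fold change -1.66, SE 0.10, adjusted p = 5.02e-17). The comparisons with NC share the control libraries, so their falls are not independent of each other. In every one of the 58 genes both P1-a2 libraries lay below both P2-a8 libraries, and the share of all tested genes so separated is not given.

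Markers and RNA measures also differed between the Panc10.05 groups. Of 5 epithelial markers, 3 rose and 1 (CDH1) fell with P1-a2. Of the leukocyte markers 3 were tested and 2 (CD68 and CD79A) rose. Of the fibroblast markers 2 were tested and 1 (PDGFRB) rose, while PTPRC, DCN and LUM were at 0. With P2-a8 all 5 epithelial markers rose, as did the leukocyte markers CD14 and CD79A and the fibroblast marker COL1A1. The summed level of the epithelial markers was 4669 to 4688 CPM in control, 6647 to 7694 with P1-a2 and 8143 to 8489 with P2-a8. The share of counts from mitochondrial genes was 5.51% to 5.98% in control and 4.93% to 5.36% with P1-a2. Their part in the fall of the mitotic genes was not tested.

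In BxPC3, P1-a2 lowered the mitotic genes to a smaller extent. Of the 58, 41 were lower than control and none higher, where 14.9% of all tested genes were lower and 32% past the threshold in either direction. The fitted change was negative for all 58, with a median log2 fold change of -0.40, against -0.01 over all tested genes. Both P1-a2 libraries lay below both controls for 54, and the share of all tested genes so separated is not given. The largest falls were those of KIF15, a kinesin that slides spindle microtubules (log2 fold change -0.68, SE 0.09, adjusted p = 1.76e-04), and of the NDC80 complex subunits SPC24 (-0.68 on the log2 scale) and NUF2 (-0.66). Leaving out NC replicate 2 lowered the count from 41 to 27. In this line samples with the same replicate number deviated together, and a fit with the replicate as a block called 54.

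CDK1 was among the genes that fell in BxPC3, from 112 and 115 CPM in control to 83.7 and 78.9 with P1-a2 (log2 fold change -0.48, SE 0.06, adjusted p = 1.17e-04). CCNB1 behaved otherwise, at 179.7 and 227 CPM in control and 172 and 186 with P1-a2. Those groups overlapped (adjusted p = 0.541; with the block, 0.0516). Of the kinases, PLK1 went from 145 and 164 CPM to 107 and 111 (log2 fold change -0.50, SE 0.10, adjusted p = 0.00420) and AURKB from 51.4 and 57.7 to 38.4 and 41.8 (log2 fold change -0.45, SE 0.09, adjusted p = 0.00245). AURKA was at 102 and 122 CPM in control and 102 and 109.8 with P1-a2, with overlapping groups and a log2 fold change of -0.08 (SE 0.11). BUB1B went from 82.7 and 88.5 CPM to 59.7 and 62.5, a separation of all libraries (log2 fold change -0.49, SE 0.08, adjusted p = 5.45e-04).

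Of the 7 anaphase genes of BxPC3, all had a negative fitted change and 4 were lower past the threshold, with CDC20 and PIMREG added by the replicate block. TOP2A fell from 368 and 439 CPM to 272 and 293 (log2 fold change -0.51, SE 0.11, adjusted p = 0.00794), a call lost without P1-a2 replicate 1 (adjusted p = 0.0806). PTTG1 stood at 66.8 and 76.1 CPM in control, 66.6 and 70.4 with P1-a2 and 86.2 and 101 with P2-a8, so that control and P1-a2 overlapped and P2-a8 lay above both. CDC20 had a log2 fold change of -0.31 with P1-a2 (adjusted p = 0.211), which passed the threshold with the block (adjusted p = 0.00369).

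Of the 11 kinetochore genes 8 fell in BxPC3, and of the 12 kinesins 9. NDC80 stood at 43.0 and 47.3 CPM in control, 35.6 and 32.3 with P1-a2 and 49.0 and 48.6 with P2-a8, and KIF11 at 98.0 and 98.0, 70.3 and 64.0 and 95.7 and 99.8. In both genes the P1-a2 libraries lay below those of both other groups (for P1-a2 against control, log2 fold change -0.41, SE 0.08, adjusted p = 0.00180 and log2 fold change -0.55, SE 0.06, adjusted p = 6.69e-05). CENPF and KIF20A had log2 fold changes of -0.37 and -0.33 with adjusted p = 0.349 and 0.376, which became 1.9e-05 and 3.01e-04 with the replicate block. The control libraries of both genes were far apart, at 180.2 and 246 CPM and at 110.4 and 149.6 CPM.

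TPX2 in BxPC3 only just passed (log2 fold change -0.34, SE 0.11, adjusted p = 0.0489), and its call was lost without P1-a2 replicate 1, P1-a2 replicate 2 or NC replicate 2 (adjusted p up to 0.261). ANLN fell from 266 and 285 CPM to 207 and 211 (log2 fold change -0.40, SE 0.07, adjusted p = 0.00132). FOXM1 fell from 173 and 159 CPM to 132 and 116 (log2 fold change -0.43, SE 0.07, adjusted p = 9.49e-04). MYBL2 fell from 216 and 184 CPM to 171 and 155 (log2 fold change -0.29, SE 0.09, adjusted p = 0.0300), and its call was lost without NC replicate 1 or P1-a2 replicate 2 (adjusted p up to 0.191). All P1-a2 libraries lay below control for these 4 genes.

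P2-a8 in BxPC3 gave 1 call among the 58, a rise of PTTG1 (log2 fold change 0.39, SE 0.09, adjusted p = 0.0219), where 4.3% of all tested genes were higher, 2.69% lower and 6.99% past the threshold in either direction. The call was lost without NC replicate 1 (adjusted p = 0.174) or without P2-a8 replicate 2. The median log2 fold change of the 58 was 0.07, 43 values were positive, and 3 genes had an unadjusted p under 0.05. DESeq2 also called 1. With the replicate block, 6 were higher, among them CCNB1 (adjusted p = 0.0477) and KIF20A (0.00268). Without P2-a8 replicate 1 the count was 5. The median log2 difference of the genes from control was -0.04 in P2-a8 replicate 1 and 0.19 in P2-a8 replicate 2.

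At the equal dose of this line, P1-a2 was lower than P2-a8 for 47 of the 58 genes and higher for none, where 10.8% of all tested genes were lower and 22.5% past the threshold in either direction. SPC24 (log2 fold change -0.85, SE 0.11, adjusted p = 3.95e-04), GAS2L3 (-0.77 on the log2 scale) and KIF15 (-0.72) differed most. GAS2L3, which links actin and microtubules, lost its call without P1-a2 replicate 1 (adjusted p = 0.180) or without P2-a8 replicate 2. Leaving out P1-a2 replicate 1 lowered the count to 31, and the replicate block raised it to 58. HNF4A differed by -0.33 on the log2 scale between these groups (adjusted p = 0.217).

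Of 5 epithelial markers, 4 rose with P1-a2 in BxPC3, and their summed level went from 5696 to 6121 CPM in control to 8633 to 9077. Of 4 leukocyte markers tested 2 rose, CD79A to 14.5 and 20.7 CPM from 0.149 and 0.0546 and CD68 to 1.473 and 2.999 from 0.892 and 0.983. PTPRC was at 0.136 CPM or less in all 6 libraries. Of 3 fibroblast markers tested 1 rose, LUM, to 6.14 and 6.38 CPM from 1.45 and 0.764, and none of 3 endothelial markers tested passed. With P2-a8 all 5 epithelial markers, CD79A and LUM rose. The share of mitochondrial counts was 6.17% to 6.29% in control and 5.70% to 5.73% with P1-a2. Their part in the lower mitotic genes was not tested.

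**Figure D3:**
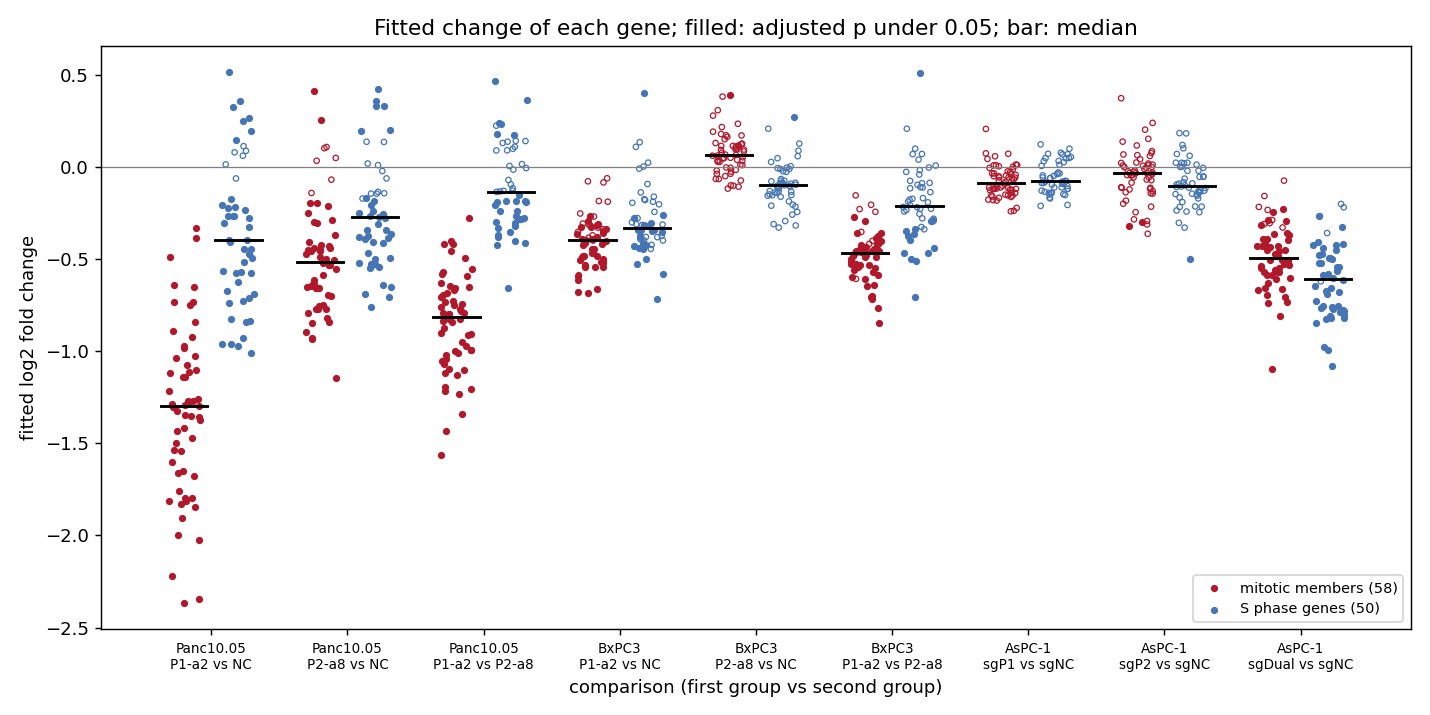
Each point is the fitted log2 fold change of 1 gene in the comparison named on the horizontal axis, red for the 58 mitotic genes and blue for 50 S phase genes; filled points had an adjusted p under 0.05 and bars are medians. The medians of the mitotic genes are -1.30 with P1-a2 in Panc10.05, 0.07 with P2-a8 in BxPC3 and -0.49 with sgDual.

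In AsPC-1, guides against a single promoter changed few of the genes. With sgP1, none of the 58 passed the threshold, where 0.265% of all tested genes did. By an unadjusted p under 0.05, 4 were lower, DESeq2 called none, and the median log2 fold change was -0.09. With sgP2, 2 were lower, the centrosome kinase NEK2 (log2 fold change -0.32, SE 0.08, adjusted p = 0.0349) and CENPF (log2 fold change -0.30, SE 0.08, adjusted p = 0.0464), where 1.76% of all tested genes were lower, 1.66% higher and 3.42% past the threshold in either direction. Both calls were lost when any 1 sgNC or sgP2G library was left out, with adjusted p up to 0.244 and 0.306, and that of CENPF also without either sgP2D library. sgP2 differed from sgP1 for none of the 58, where 2.17% of all tested genes were higher, 2.13% lower and 4.3% past the threshold in either direction. There, 7 had an unadjusted p under 0.05, DESeq2 called 1 (SPC24), and leaving out sgP1E replicate 1 (ECT2) or sgP1J replicate 2 (ESPL1) gave 1 call each.

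Guides against both isoforms lowered the mitotic genes. Of the 58, 50 were lower with sgDual than with sgNC and none higher, where 17.8% of all tested genes were lower and 35.6% past the threshold in either direction. The fitted change was negative for all 58 with a median of -0.49 on the log2 scale, against 0.001 over all tested genes. All 4 sgDual libraries lay below both controls for 54, and the share of all tested genes so separated is not given. The genes took 0.4929% ± 0.0279 (SD, n = 4 libraries, pooled over both guides) of counts, against 0.698% with sgNC. Both sgDual2 libraries had a lower share than both sgDual3 libraries, so this SD includes a difference between guides. CDC20 (log2 fold change -1.10, SE 0.16, adjusted p = 1.75e-04), CDCA3, which promotes entry into mitosis (-0.81 on the log2 scale), and CCNA2, cyclin A2 (-0.74), fell most. The 8 genes that did not pass were GAS2L3, CDC25C, SKA1, KIF14, ECT2, ESPL1, SPC24 and PIMREG, of which GAS2L3 and SKA1 passed with the replicate block (adjusted p = 0.0406 for GAS2L3, and just under the threshold for SKA1).

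CDC20 stood at 206 and 169 CPM with sgNC, 135 to 191 over the 4 sgP1 libraries, 151 to 226 over sgP2 and 88.8, 78.3, 92.8 and 90.6 with sgDual. All sgDual libraries lay below every other library of the line, which spread widely. CCNB1 stood at 256 and 268 CPM with sgNC and 165, 168, 189 and 185 with sgDual (log2 fold change -0.57, SE 0.09, adjusted p = 2.48e-04), and CDK1 at 152 and 151 and 106, 110.2, 120.4 and 113 (log2 fold change -0.43, SE 0.09, adjusted p = 0.00127). Neither gene's groups overlapped.

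All 7 genes of the mitotic kinases and the passenger complex fell with sgDual. PLK1 went from 234 and 229 CPM with sgNC to 159, 151, 169.6 and 160.2 (log2 fold change -0.54, SE 0.08, adjusted p = 1.9e-04). AURKA went from 187 and 187 CPM to 109, 106, 121 and 115 (log2 fold change -0.73, SE 0.09, adjusted p = 4.13e-05) and was at 159 to 185 over sgP1 and 172 to 217 over sgP2, above sgDual in each library. AURKB went from 52.1 and 53.3 CPM to 34.3, 33.8, 37.9 and 38.1. All 4 checkpoint genes fell too, BUB1B from 94.4 and 98.5 CPM to 64.9, 64.1, 70.6 and 71.9 (log2 fold change -0.51, SE 0.06, adjusted p = 4.39e-05).

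Of the anaphase genes 5 of 7 fell. TOP2A went from 392 and 404 CPM with sgNC to 239.9, 260.4, 293 and 289 (log2 fold change -0.56, SE 0.09, adjusted p = 2.45e-04). PTTG1 went from 79.8 and 77.7 CPM to 54.6, 53.9, 62.2 and 59.1 (log2 fold change -0.45, SE 0.12, adjusted p = 0.00741) and lost its call without sgNC replicate 1 or without guide sgDual2 (adjusted p = 0.0749). PIMREG, which fell furthest in Panc10.05, was at 18.1 and 16.2 CPM with sgNC and 15.5, 13.9, 18.5 and 17.3 with sgDual, with overlapping groups (log2 fold change -0.07, SE 0.14, adjusted p = 0.727).

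Of the kinetochore genes 9 of 11 fell and of the kinesins 11 of 12. NDC80 (log2 fold change -0.23, SE 0.08, adjusted p = 0.0324) and CENPF (log2 fold change -0.25, SE 0.08, adjusted p = 0.0216) had the smallest falls of the followed genes. The NDC80 call was lost without sgNC replicate 2, either sgDual2 library or sgDual3 replicate 2 (adjusted p up to 0.302), and that of CENPF without either sgNC library, sgDual2 replicate 1 or guide sgDual2 (adjusted p up to 0.159). KIF11 went from 184 and 180.1 CPM to 127, 131, 142 and 133 (log2 fold change -0.45, SE 0.07, adjusted p = 1.81e-04). KIF20A went from 119.6 and 134 CPM to 77.0, 86.4, 96.8 and 96.8 (log2 fold change -0.51, SE 0.12, adjusted p = 0.00335) and missed the threshold without sgNC replicate 2 (adjusted p = 0.0506).

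TPX2 went from 448 and 439 CPM with sgNC to 278.3 to 314.6 with sgDual (log2 fold change -0.59, SE 0.09, adjusted p = 2.19e-04). ANLN went from 496 and 473 CPM to 346, 342, 388 and 363 (log2 fold change -0.43, SE 0.10, adjusted p = 0.00497) and lost its call without sgNC replicate 1 (adjusted p = 0.0653). The transcription factors both fell. FOXM1 went from 193 and 170.4 CPM to 117, 113, 134 and 124 (log2 fold change -0.57, SE 0.11, adjusted p = 8.95e-04) and MYBL2 from 393 and 349 to 229.5, 209, 281 and 241 (log2 fold change -0.63, SE 0.11, adjusted p = 4.75e-04).

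Against the single-promoter guides the difference was of like size. sgDual was lower than sgP1 for 50 of the 58 genes, where 19.7% of all tested genes were lower, 18.6% higher and 38.3% past the threshold in either direction. It was lower than sgP2 for 51, where 23.5% were lower, 22.8% higher and 46.4% past the threshold in either direction. The medians were -0.42 and -0.44 on the log2 scale, and none of the 58 passed as higher in either. CDC20, CDCA3 and BIRC5 were furthest apart from sgP1 (-0.92, -0.72 and -0.64 on the log2 scale). CDC20, CDCA3 and AURKA were furthest apart from sgP2 (-1.07, -0.83 and -0.81). These comparisons share the sgDual libraries.

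Guides of the same target were compared with each other. sgDual3 did not differ from sgDual2 for any of the 58 genes by edgeR's test, where 0.465% of all tested genes were higher, 0.418% lower and 0.883% past the threshold in either direction. The fitted difference was positive for 57, with a median of 0.13 on the log2 scale, against -0.0025 over all tested genes. Of the 58, 12 had an unadjusted p under 0.05, and both sgDual3 libraries lay above both sgDual2 libraries for 45. For those 2 counts the shares over all tested genes are not given, and the 58 genes are not independent. DESeq2 called none, and the replicate block called 1, MYBL2. HNF4A was at 4.83 and 13.6 CPM with sgDual3 and 3.18 and 10.3 with sgDual2.

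Between the P1 guides, CDK1 (log2 fold change 0.25, SE 0.07, adjusted p = 0.0357), AURKB (0.24) and UBE2C (0.33) were higher with sgP1J than with sgP1E, where 6.7% of all tested genes were higher, 7.82% lower and 14.5% past the threshold in either direction. The AURKB call was lost without either sgP1E library or sgP1J replicate 2. Those of CDK1 and UBE2C were lost without sgP1E replicate 2 or sgP1J replicate 2, and that of CDK1 also without sgP1J replicate 1. Without sgP1E replicate 2 or sgP1J replicate 2 the count was 1. With the replicate block 7 differed, among them FOXM1 (lower, adjusted p = 0.0102) and MYBL2 (higher, 0.0221). Between the P2 guides, SKA3, a subunit that helps kinetochores hold microtubules, was lower with sgP2G, at 28.1 and 28.2 CPM against 45.6 and 39.4 (log2 fold change -0.60, SE 0.13, adjusted p = 0.0289). There 0.647% of all tested genes were lower, 1.05% higher and 1.69% past the threshold in either direction. That call was lost without sgP2D replicate 1 or either sgP2G library (adjusted p up to 0.250).

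Alongside these changes in AsPC-1, 1 of 5 fibroblast markers rose with sgDual, LUM, and the list summed to 279 to 299.9 CPM with sgDual and 165 to 179 with sgNC. The other 4 of that list were each below 1 CPM. None of the 5 epithelial, 2 leukocyte and 1 endothelial markers tested passed the threshold. The epithelial sum was 14291 to 14583 CPM with sgNC and 11249 to 15952 with sgDual. Mitochondrial counts were 8.37% to 9.24% with sgNC and 9.23% to 9.88% with sgDual. Their part in the lower mitotic genes was not tested.

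The response of the lines was compared within a joint fit of the 12 induced and control libraries. With P1-a2, 52 of the 58 genes were further down in Panc10.05 than in BxPC3, where 20.1% of the 19372 genes tested had a lower difference and 36.4% were past the threshold in either direction. The median difference of log2 fold changes was -0.89. MYBL2 (-2.04, SE 0.11, adjusted p = 1.37e-11), PIMREG (-1.97) and KIF20A (-1.88) differed most. CDK1 and CENPF did not pass, with differences of 0.11 (SE 0.10) and 0.05 (SE 0.30). For P2-a8 against control, 42 genes were further down in Panc10.05, led by PTTG1 (-1.16, SE 0.12), where 11.9% of all tested genes had a lower difference and 23.5% passed in either direction.

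Between the isoforms (P1-a2 against P2-a8), 20 of the 58 had a more negative difference in Panc10.05, where 13.5% of all tested genes did and 22.3% passed in either direction. That count rose to 38 without BxPC3 P2-a8 replicate 2 and to 36 with the replicate block. The rise of HNF4A over control was larger in Panc10.05, by 2.35 on the log2 scale with P1-a2 and 3.68 with P2-a8. Both differences passed in edgeR's joint fit (adjusted p = 0.00216 and 5.41e-05). Mean HNF4A in Panc10.05 and BxPC3 was 11.8 and 10.7 CPM with P1-a2, 37.6 and 13.4 with P2-a8, and 0.149 and 0.771 in control. The lines also differed in dose, in the control construct and in the number that begins the library names, and none of these can be told apart from the line.

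The 3 comparisons with no library in common were P1-a2 against NC in Panc10.05 and in BxPC3 and sgDual against sgNC in AsPC-1. In these, 37 of the 58 genes were lower in all 3, 17 in 2 and 4 in 1. Of all tested genes, 30.5%, 14.9% and 17.8% were lower in the 3 comparisons in turn. The share lower in all 3 is not given here. The 41 genes lower in BxPC3 were all lower in Panc10.05, as were the 50 lower with sgDual, which follows from all 58 being lower there. The 37 are thus the overlap of the 41 and the 50, and whether it exceeds that of 2 unrelated sets was not tested. Across the 58 genes, which share libraries and are not independent, Pearson's r was -0.17 between Panc10.05 and BxPC3 (Spearman's rho -0.14), 0.10 between Panc10.05 and AsPC-1 (rho 0.10) and -0.17 between BxPC3 and AsPC-1 (rho -0.13). PTTG1 and AURKA show this, at -1.83 and -1.35 on the log2 scale in Panc10.05, -0.06 and -0.08 in BxPC3, and -0.45 and -0.73 with sgDual. CDK1 was alike in the 3 lines, at -0.39 (SE 0.07), -0.48 (SE 0.06) and -0.43 (SE 0.09). HNF4A itself was higher than control in Panc10.05 and BxPC3 and lower in AsPC-1.

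**Figure D4:**
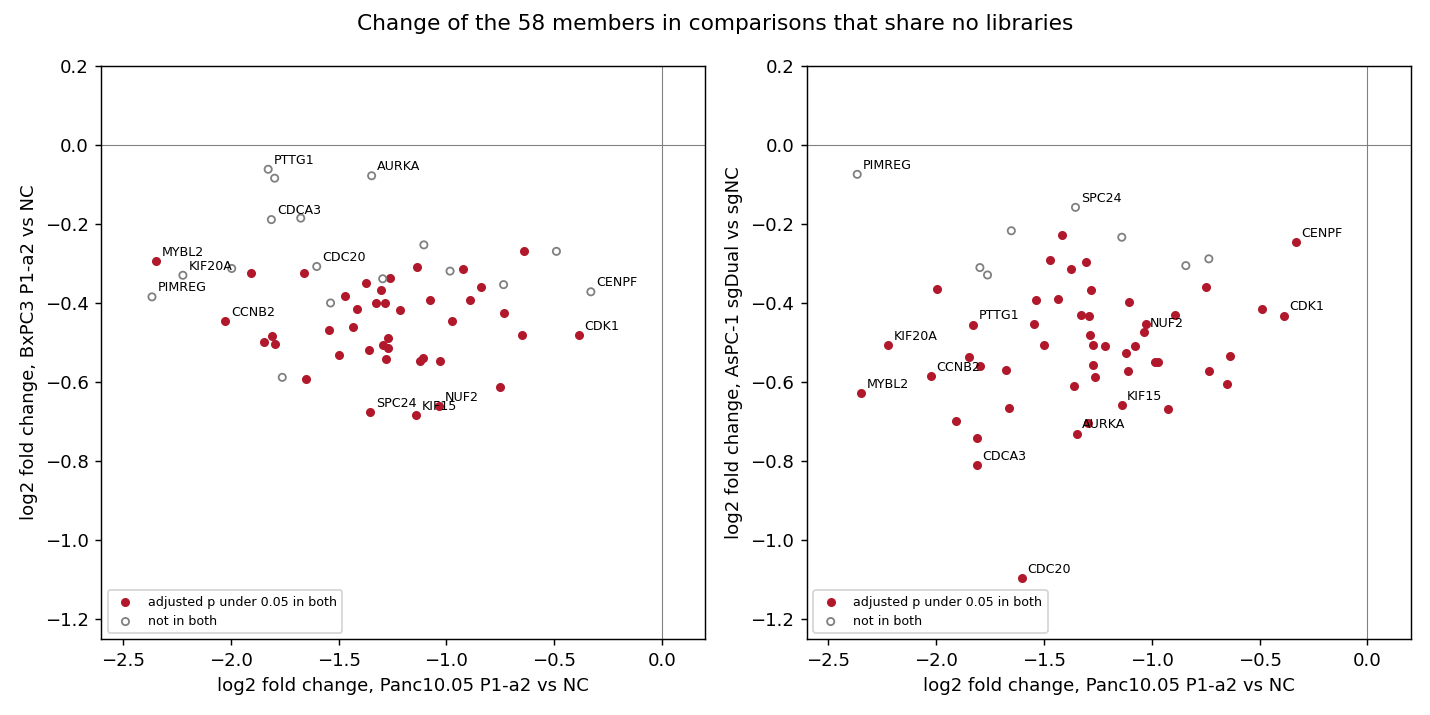
Each point is 1 of the 58 genes, placed by its log2 fold change with P1-a2 in Panc10.05 (horizontal) and with P1-a2 in BxPC3 (left panel, vertical) or with sgDual in AsPC-1 (right panel, vertical); the horizontal and vertical scales differ, and filled points had an adjusted p under 0.05 in both. All points lie below 0 on both axes, with no common trend in size (Pearson's r -0.17 and 0.10).

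Genes of DNA replication and S phase were measured beside the mitotic genes. In Panc10.05 with P1-a2, 37 of 50 S phase genes fell and 7 rose, with a median log2 fold change of -0.40 against the -1.30 of the mitotic genes. The largest changes among them were falls of RMI2 (-1.01), POLE2 (-0.97), a subunit of DNA polymerase epsilon, and UNG (-0.96), the uracil-DNA glycosylase. With P2-a8 in that line 33 fell and 6 rose (median -0.27). In BxPC3 with P1-a2, 22 fell and 1 rose, with medians of -0.33 for S phase and -0.40 for the mitotic genes. With sgDual, 45 of the 50 fell and none rose, and the S phase median of -0.61 lay below the -0.49 of the mitotic genes. RFC2, a clamp loader subunit, was furthest down there (-1.08, SE 0.23). Over all tested genes, 30.5% were lower and 31.5% higher with P1-a2 in Panc10.05, and 22.5% and 23.7% with P2-a8. The shares were 14.9% and 17.1% with P1-a2 in BxPC3, and 17.8% and 17.8% with sgDual. The difference between the lists was not tested.

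A further list of 81 mitotic genes, among them other centromere, condensin and checkpoint genes, was also measured, and its difference from the 58 genes was not tested. In Panc10.05 with P1-a2, 62 fell and 10 rose (median log2 fold change -0.73), with TROAP (-2.02), PSRC1 (-2.01) and GTSE1 (-1.99) furthest down. In BxPC3 with P1-a2, 37 fell and none rose (median -0.32), and with sgDual 58 fell and none rose (median -0.42). Of all tested genes, 30.5%, 14.9% and 17.8% were lower in these 3 comparisons, and 31.5%, 17.1% and 17.8% higher. PKMYT1, which inhibits CDK1, was the furthest down of that list with sgDual (-0.98, SE 0.13).

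Of 14 genes for the DREAM complex, its E2F partners and NF-Y, 6 fell and 4 rose with P1-a2 in Panc10.05, where 30.5% of all tested genes were lower and 31.5% higher. E2F4, the E2F of resting cells, rose by 1.08 on the log2 scale (SE 0.06), and LIN52 of MuvB (-0.81) and the pocket protein p130, gene RBL2 (-0.75), fell. RBL2 fell in BxPC3 with P1-a2 as well (-0.44, SE 0.06), where 6 of the 14 fell and 1 (LIN37) rose, against 14.9% lower and 17.1% higher over all tested genes. With sgDual, 6 fell and 1 rose, against 17.8% lower and 17.8% higher over all tested genes, and TFDP2 (-1.49), RBL1 (-0.66) and E2F4 (-0.57) changed most, so that E2F4 rose with P1-a2 in Panc10.05 and fell with sgDual.

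Change was also read against the promoter letters shown above, where a CHR means the exact letters TTTGAA. In Panc10.05 with P1-a2, the 35 genes with a CHR in a window had a median log2 fold change of -1.27 and the 14 without one -1.61. KIF20A and MYBL2, printed without a CHR, were among the 3 largest falls there, and CDK1, with 3 matches, was among the smallest. With sgDual the medians were -0.45 with and -0.52 without, and in BxPC3 with P1-a2 -0.40 and -0.42. These are descriptions, with no test. Genes without a CHR in a window ran from -2.35 to -0.89 in Panc10.05 with P1-a2, and those with one from -2.02 to -0.33.

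Some counts are less certain than others. Exons of 4 of the 58 genes (BUB1B, CENPA, PRC1 and GAS2L3) overlap another gene on the same strand in GENCODE v29, and 21 overlap a gene on the opposite strand, among them PLK1, KIF20A, PIMREG, ANLN and FOXM1. The strand setting of the counting is not given in the sources used here, so reads of such pairs cannot be told apart.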

How the data were processed

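RNA was measured by poly(A) selected, directional, paired-end sequencing in 26 libraries, per the labels' protocols. The deposited values are whole-number counts per gene, not normalized, in 1 table per line, and every column was assigned to a sample. The submitters' processing notes name STAR 2.7.9a, cutadapt 1.16, featureCounts 1.6.3, DESeq2 1.36.0 and GRCh38, with no role or order; the annotation and strand setting are not given in the sources used here. Identifiers were matched to symbols (99.88% of those for Panc10.05 and BxPC3, 99.91% for AsPC-1).

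Genes were kept with filterByExpr by group, scaled with TMM, and compared by quasi-likelihood F tests in edgeR (robust) on all groups of a line, with Benjamini-Hochberg adjustment over all genes tested and a threshold of 0.05. CPM were computed by edgeR with the same scaling, and an SE is the absolute log2 fold change divided by the square root of F. In the main fit of AsPC-1 the groups were the targets, so libraries of different guides with the same target were pooled as replicates. The SEs and p-values of sgP1, sgP2 and sgDual there thus take in differences between guides as well as between libraries. Guides were compared in a fit of 7 groups, and lines by an interaction contrast in a joint fit. Library depth, 26079388 to 50662077 counts, and the number of libraries limit the precision. The fit was tested on simulated data. Replicates were no duplicates (chi-square over degrees of freedom 5.53 to 26.9).

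The members and lists were chosen with earlier results of these data known, and the lists come from general knowledge. Named are 17 members followed in every comparison, up to 3 members with the largest rise and fall past the threshold in each comparison, members at the ends of a range or in a count of 5 or fewer, up to 3 genes of each other list, and HNF4A. The uncalled genes of Panc10.05 P2-a8 and of sgDual, and genes named for their printed promoters or overlaps, were named after their values were seen.

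Samples with the same replicate number deviated together in BxPC3 (correlations of deviations from group means 0.173 to 0.316, all 3 pairs of groups above 0.1) and AsPC-1 (0.193 to 0.611, all 21 pairs), but not in Panc10.05 (-0.017 to 0.0227); the pairing comes from these correlations and not from the labels. Alternatives were DESeq2 1.42.0, total count scaling, no low-count filter, a log2 limit of 1, the compared groups alone, the replicate block, and leaving out each library or guide. Promoter windows are from RefSeq, GRCh38.p14; gene positions and lengths are from GENCODE v29. The software was R 4.3.3 with limma 3.58.1 and edgeR 4.0.16, and Python 3.11.15, pandas 2.3.3, numpy 2.4.6 and matplotlib 3.10.9.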

Additional observations from a re-analysis of the deposited data

Results flagged for a closer look

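The change in the mitotic genes differed between Panc10.05 and BxPC3 by a test of the difference itself, an interaction contrast in edgeR's joint fit, which is what singles out the results here. For P1-a2 against control, 52 of the 58 genes differed, all further down in Panc10.05, led by MYBL2 (-2.04 as a difference of log2 fold changes), PIMREG (-1.97) and KIF20A (-1.88). For P2-a8 against control, 42 differed, again all further down in Panc10.05, led by PTTG1 (-1.16), DLGAP5 (-1.09) and MYBL2 (-1.08). For P1-a2 against P2-a8, 20 differed, led among those by PIMREG (-1.01), MYBL2 (-0.964) and CDC25C (-0.868). Of all 19372 genes tested, 20.1%, 11.9% and 13.5% had a lower difference in these 3 contrasts in turn. The shares past the threshold in either direction were 36.4%, 23.5% and 22.3%. Dose, control construct, the rise of HNF4A and the number that begins the library names differ between the lines and cannot be told apart from the line. In the 57 sets of 4 libraries examined for a single library far from the others, none was found, where chance gives 2.85.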

How the results depend on the processing

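With a limit of 1 on the log2 scale, the members called numbered 1 for Panc10.05 P2-a8 against NC, 17 for P1-a2 against P2-a8, 0 in each BxPC3 comparison, 0 for sgP2 against sgNC, 1 for sgDual against sgNC, 0 against sgP1 and 1 against sgP2, 0 for sgP1J against sgP1E and for sgP2G against sgP2D, and 22, 4 and 1 for the contrasts between lines (P1-a2, P2-a8 and P1-a2 against P2-a8). The replicate block gave 6 for BxPC3 P2-a8 against NC, 7 for sgP1J against sgP1E, 1 for sgDual3 against sgDual2 and 36 for the contrast between lines of P1-a2 against P2-a8; it moved no other count of called members by over 1.5 times, and outside BxPC3 and the comparisons named it added SKA1 and GAS2L3 for sgDual against sgNC and 1 and 6 genes for the contrasts between lines of P1-a2 and of P2-a8, and ended no call. In Panc10.05, where the numbers pair nothing, it called 58 with P1-a2. Without the low-count filter BxPC3 P2-a8 gave 4. For sgP2 against sgNC, DESeq2 gave 4, total count scaling 1, the compared groups alone 4, the fit of 7 groups 6, and leaving out guide sgP2D 1 and sgP2G 0. For sgP2 against sgP1, DESeq2 gave 1, the fit of 7 groups 2, and leaving out guide sgP1E 2, sgP1J 1 and sgP2D 1. Without guide sgP1J, sgP1 against sgNC gave 1, and with the compared groups alone, sgP1J against sgP1E gave 0. Total count scaling moved the share of higher calls over all genes in the sgP1 comparison with sgNC (37.8% became 47.9%) and in that of sgP2 with sgNC (48.5% became 59.1%).

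Leaving out 1 library gave 58 for Panc10.05 P1-a2 throughout, 49 to 52 for P2-a8, 27 to 39 and 0 to 5 for BxPC3 P1-a2 and P2-a8, 31 to 50 for P1-a2 against P2-a8, 0 for sgP1, 0 to 1 for sgP2, 39 to 51 for sgDual, 0 to 1 for sgP2 against sgP1, 45 to 50 and 45 to 51 for sgDual against sgP1 and sgP2, 1 to 4 for sgP1J against sgP1E, 0 to 1 for sgP2G against sgP2D, 0 for sgDual3 against sgDual2, and 48 to 52, 33 to 45 and 16 to 38 for the contrasts between lines. The cause of these moves was not tested, beyond the smaller number of libraries or genes by construction. The 181 named gene results past the threshold in the main fit were followed under the alternatives other than the log2 limit. In 2067 cases the result stayed past the threshold, in 93 it did not, and in 0 the sign reversed. Named results not past the threshold in the main fit were left out, so gains are not counted here.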
